A study of Mus musculus with 92 samples.

Results

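The genes described here encode the aminoacyl-tRNA synthetases, the enzymes that load each transfer RNA with its amino acid. A list of 36 such genes, 20 for cytosolic and 16 for mitochondrial enzymes, was looked up by symbol, and all 36 were among the 23956 genes of the expression table. Levels are given as log2(TPM + 1), where TPM is the share of transcripts scaled to a fixed total of 1000000, corrected for gene length so that genes can be compared within a cell. A gene is called detected in a cell where its TPM is above 0, and a value of 0 is described as listed at 0, since shallow sampling of a cell also gives 0.

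The cells were single bone marrow cells of C57BL/6 mice with the genotype Gfi1-R412X/R412X, a homozygous change in the gene for the transcriptional repressor GFI1 that acts in granulocyte development. All cells carried it, with 0 wild-type cells, and all came from crushed hindlimb bones, with CD117-positive cells (the product of Kit) selected by magnetic beads before sorting. The labels name 2 sort gates: GMP, the granulocyte-monocyte progenitor gate, with 45 cells, and CD11b+ GMP-P, with 47 cells. The authors' annotation places the GMP cells in the states Multi-Lin (5 cells), MP (5), Mono (24), cMoP (3), Gran-1 (6) and Gran-2 (2). It places the CD11b+ GMP-P cells in Multi-Lin (1 cell), Mono (1), Gran-1 (4), Gran-2 (20), Myelo-1 (3), Myelo-2 (15) and Myelo-4 (3). The labels give no ages and name no animals, so each gate is 1 sample without a replicate. Each gate carries its own date code in the labels, so that effects of gate, animal and date cannot be told apart. No p-value is given for any difference, and each SD is the spread of cells.

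Cells differed in how many genes were detected in them. Capture depth is unknown, and its part in this was not tested. Genes detected per cell had a median of 5611 in the GMP gate (2775 to 6612) and of 4143 in the CD11b+ GMP-P gate (1993 to 5743). It was 3634 in the Multi-Lin cells of the GMP gate, 2936 in Myelo-2 and 2192 in Myelo-4. The state labels were checked against markers. The mast cell protease gene Cpa3 was above 0 in all 5 Multi-Lin cells of the GMP gate (116 to 4017 TPM) and in 4 of the other 40 (29.2 TPM at most). The late neutrophil markers had a median summed level of 515010 TPM in Myelo-2, of a total of 1000000. Markers of other lineages were mixed. Epor (erythroid), Pf4 (megakaryocyte), Cd79a (B cell) and Cd3e (T cell) were listed at 0 in all 92 cells. The 4 T and NK cell markers had a median summed level of 3409 TPM in GMP (130 to 11282) and 2721 TPM in CD11b+ GMP-P (0 to 11763), with 3 of 4 above 0 in some cell of each gate. Nearly all of it was Nkg7, a cytotoxic granule gene, which was above 0 in 45 of 45 and 44 of 47 cells. The 4 megakaryocyte markers summed to 0 to 51.6 TPM in Multi-Lin and to at most 0.30 in the other 40 GMP cells. The erythroid factor gene Klf1 was above 0 in 2 of the 5 Multi-Lin cells, at up to 1041 TPM, and in 1 of the other 40, at 90.4 TPM. Of the 4 B cell markers Cd79b alone was above 0 in Multi-Lin, at up to 1039 TPM, against up to 235 TPM in the other 40. The part of these lineages in the results was not tested.

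Each synthetase recognises 1 amino acid and its transfer RNAs and joins them at the cost of ATP. The cytosol and the mitochondrion translate separately, and most amino acids have a separate nuclear gene for each compartment, the mitochondrial one marked by a 2 at the end of its symbol. Kars (lysine) and Gars (glycine) serve both compartments from a single gene. Eprs charges both glutamate and proline in the cytosol. Farsa and Farsb are the subunits of the phenylalanine enzyme. Eprs, Iars, Lars, Mars, Qars, Rars, Kars and Dars sit together in the multisynthetase complex, held by the scaffold proteins encoded by Aimp1, Aimp2 and Eef1e1. Many cytosolic synthetase genes are targets of ATF4, the transcription factor that is translated when amino acids run short, through a C/EBP-ATF composite element at their promoters.

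The letters TGATGNAAT, a common form of that element, were searched on both strands of the RefSeq promoter windows (250 bases before to 50 after the gene start, GRCm38.p6). Of the 36 genes, 27 had a window, 1 of them through a synonym. The genes with no entry were Cars, Hars, Lars, Nars, Rars, Vars, Wars, Hars2 and Pars2. The letters stood in the windows of 3 of the 27 genes, Gars and Iars among them, against 1.08% of all 27025 genes. By single window of 300 bases, 0.965% of all 32851 windows held them. Stretches of 30 bases are shown for Gars and Iars because they hold matches among the members, with the match, which lies on the opposite strand in both, in capitals. They lie on the plus strand at chr6:55037960-55037989 (Gars) and chr13:49682126-49682155 (Iars). A match is a description and not a shown binding site.
Gars: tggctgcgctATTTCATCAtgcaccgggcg
Iars: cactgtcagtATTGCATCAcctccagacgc
The match begins 31 bases before the start of Gars and at base 7 of the Iars transcript. In the GMP gate Gars averaged 3.19 ± 2.73 and Iars 3.33 ± 2.94. In the 5 Multi-Lin cells of that gate Iars was listed at 0 throughout, while Gars was detected in 2 and reached 7.06.

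The cytosolic enzymes formed a wide ladder of levels in the GMP gate. Kars, the lysine enzyme, stood highest at 8.08 ± 3.22 (mean log2(TPM + 1) ± SD, 45 cells), from 0 through a median of 9.38 to 10.65. It was detected in 41 of 45 cells (91.1%, exact Clopper-Pearson 95% interval 78.8 to 97.5, counting error only). Nars, the asparagine enzyme, followed at 7.34 ± 2.19 and was detected in 44 of 45 cells. Farsa (6.58 ± 2.82) and Eprs (6.08 ± 2.08) were each detected in 43 cells. Next came Dars (aspartate) at 5.20 ± 2.91, Rars (arginine) at 5.16 ± 3.32 and Hars (histidine) at 4.94 ± 2.85. The steps between neighbours in this order are smaller than the spread of cells around each mean.

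The lower part of the ladder held the other enzymes. Qars (glutamine) stood at 4.07, Sars (serine) at 3.51, Farsb at 3.35, Iars (isoleucine) at 3.33, Tars (threonine) at 3.32 and Gars at 3.19. Vars (valine) at 2.93, Lars (leucine) at 2.79, Yars (tyrosine) at 2.65 and Mars (methionine) at 2.59 followed. Aars (alanine) at 2.36, Wars (tryptophan) at 2.14 and Cars (cysteine) at 1.64 closed it. Farsa and Farsb, whose products assemble into 1 enzyme, differed in mean level, 6.58 against 3.35, and in detection, 43 against 30 of 45 cells. Of the 20 cytosolic genes, 19 were detected in more than 50% of the GMP cells. Cars, in 20 of 45, was the exception.

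The mitochondrial enzymes lay lower, with Lars2, the mitochondrial leucine enzyme, apart from the rest. Lars2 was detected in 45 of 45 GMP cells and 47 of 47 CD11b+ GMP-P cells. Its levels were 5.47 ± 0.89 (3.85, median 5.24, to 7.81) and 4.81 ± 1.01 (2.82, median 4.73, to 6.81). Whether the values of Lars2 reflect the transcript of the enzyme alone was not tested. After it in the GMP gate came Tars2 (threonine) at 3.14 ± 3.27, Fars2 (phenylalanine) at 2.92 ± 3.26, Rars2 (arginine) at 2.63 ± 3.33 and Yars2 (tyrosine) at 1.71 ± 2.14. The other 11 lay between 0.22 (Aars2) and 1.54 (Cars2). The low end held Aars2, detected in 5 of 45 cells, Pars2 in 6, and Ears2 and Vars2 in 7 each. Wars2 was detected in 31 of 45 cells at a mean of 0.72, so most of its detections were at low level.

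**Figure D1:**
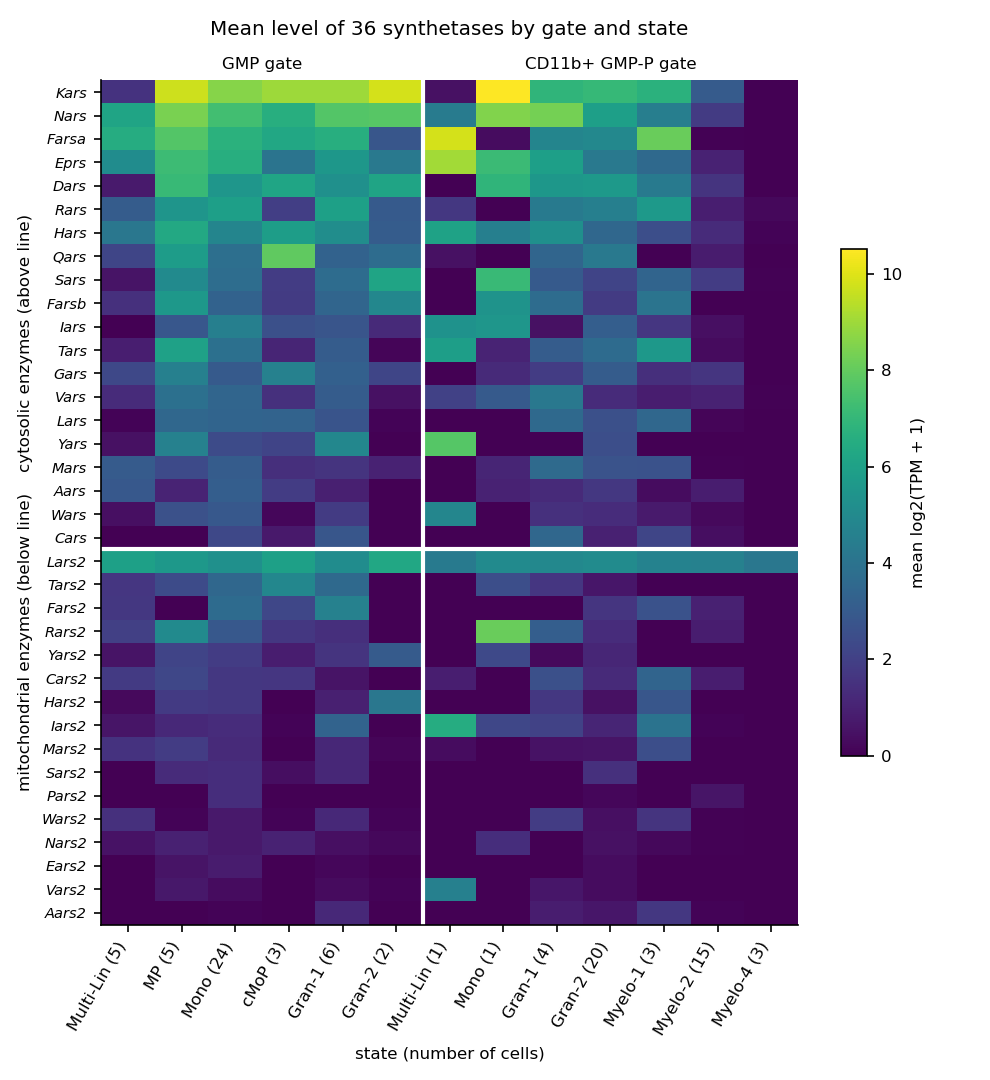
Mean log2(TPM + 1) of each of the 36 genes (rows, ordered within each compartment by the GMP-gate mean) in each state of each gate (columns, number of cells in brackets). Lars2 is present across the whole row, at 4.18 even in Myelo-4, where 16 of the 20 cytosolic genes are listed at 0 in all 3 cells. Kars is high in every GMP-gate state except Multi-Lin (1.56).

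Cytosolic genes stood above mitochondrial ones in both gates. The median over genes of the mean level was 3.34 for cytosolic and 1.30 for mitochondrial enzymes in GMP, and 2.11 and 0.51 in CD11b+ GMP-P. The median share of cells in which an enzyme was detected was 73.3% against 41.1% in GMP and 47.9% against 16% in CD11b+ GMP-P. The summed TPM of the cytosolic enzymes had a median of 2395 per GMP cell and 1283 per CD11b+ GMP-P cell. For the mitochondrial enzymes it was 298 and 113. Lars2 made a median of 14% of the mitochondrial sum per cell in the GMP gate and 37.4% in the other gate, and Kars made 25.7% and 11.4% of the cytosolic sum.

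Matching enzymes for the same amino acid gave the same order in most pairs. Of 16 pairs, the cytosolic member had the higher mean in 15 in GMP and in 14 in CD11b+ GMP-P, with median differences of 2.30 and 1.36. The widest gap was between Nars and Nars2, 7.34 against 0.69 in GMP, where Nars was the higher in 44 of 45 cells and Nars2 in 0. Eprs against Ears2 and against Pars2 gave gaps of 5.58 and 5.33. Lars and Lars2 were the other way round, 2.79 against 5.47, with Lars2 the higher in 34 of 45 GMP cells and in 40 of 47 CD11b+ GMP-P cells. Cars and Cars2 (1.64 and 1.54) and Tars and Tars2 (3.32 and 3.14) lay within the spread of cells in GMP. In CD11b+ GMP-P the mean of Cars2 (1.25) was above that of Cars (0.97), within the spread of cells, while Tars stood at 2.43 and Tars2 at 0.47.

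The first question of the design was how the gates differ. CD11b+ GMP-P cells had lower levels of nearly all cytosolic synthetases: 17 of 20 were lower by at least 2-fold (a difference of 1 in mean log2(TPM + 1)) and 0 were higher. Of the 7803 genes that passed the detection minimum (TPM above 0 in 25% or more of the cells of either gate), 39% were lower by that margin and 2.72% higher. The median difference of the cytosolic genes was -1.43, against -0.74 for all genes compared. Genes at like mean level over all 92 cells, between 2.14 and 4.16, had a median of -1.20, and the 10 cytosolic enzymes in that range -1.50.

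Farsa differed most. It ran from 0 through a median of 7.54 to 11.28 in GMP and from 0 through 0.33 to 10.32 in CD11b+ GMP-P, a difference of -3.34, and was detected in 43 of 45 against 25 of 47 cells. Nars had medians of 7.95 and 4.31 and a difference of -2.95. Eprs had medians of 6.40 and 3.23, and Kars of 9.38 and 6.03, and both differed by -2.87. Hars (-2.20) and Rars (-2.18) came next, and Farsb (-1.89) and Qars (-1.71) followed. In each of these genes the cells of the gates overlapped, and the highest CD11b+ GMP-P cells reached the GMP range. Cars (-0.68), Tars (-0.89) and Mars (-0.94) stayed within 2-fold.

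Fewer mitochondrial enzymes differed between the gates. Of the 16, 12 passed the detection minimum, Aars2, Ears2, Pars2 and Vars2 being too rarely detected. The 4 that were lower in CD11b+ GMP-P were Tars2 (-2.67), Fars2 (-1.75), Rars2 (-1.34) and Yars2 (-1.15), a share of the 12 close to the 39% of all genes, and 0 were higher. The median of the 12 was -0.71, near that of all genes, and over all 16 it was -0.46. Tars2 was detected in 25 of 45 GMP cells and 5 of 47 CD11b+ GMP-P cells. Lars2 differed by -0.66, and by 1.14 in the other direction when each cell was shifted to equal medians of widely detected genes.

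**Figure D2:**
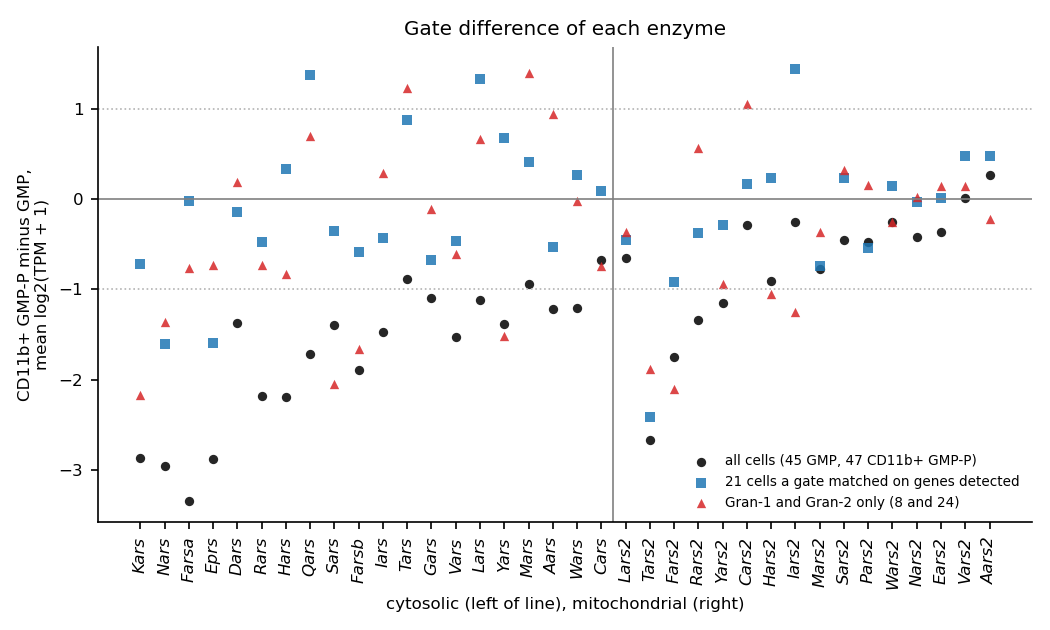
Difference in mean log2(TPM + 1), CD11b+ GMP-P minus GMP, for each gene (cytosolic left, mitochondrial right). Black circles use all cells, blue squares 21 cells per gate paired by their number of detected genes, and red triangles Gran-1 and Gran-2 cells. The cells of the red triangles are mostly Gran-1 in GMP and mostly Gran-2 in CD11b+ GMP-P. Dotted lines mark 2-fold. Most black circles of the cytosolic genes lie below -1, while the matched and granulocyte-state values scatter around or nearer to 0.

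The number of genes detected per cell moved with these differences, and its part in them was not tested. In 21 cells per gate paired by that number (medians 5241 in CD11b+ GMP-P and 5063 in GMP), 2 of 20 cytosolic genes, Nars (-1.60) and Eprs (-1.59), were lower by 2-fold and 2, Qars (1.38) and Lars (1.33), were higher, where 14.5% of all genes were lower and 11.9% higher. The median difference was then -0.25 for the cytosolic enzymes and -0.08 for all genes. Without the Myelo states 7 of 20 were lower and 0 higher, where 17.8% of all genes were lower and 5.14% higher. Among Gran-1 and Gran-2 cells 5 of 20 were lower, with Kars at -2.17 and Sars at -2.04. The 2 that were higher were Mars (1.40) and Tars (1.23), where 18.8% of all genes were lower and 10.6% higher. These cells were 6 Gran-1 and 2 Gran-2 in GMP but 4 Gran-1 and 20 Gran-2 in CD11b+ GMP-P, so state was not held constant. With equal medians of widely detected genes 11 of 20 were lower and 0 higher, where 23.8% of all genes were lower and 10.4% higher. Across all 92 cells the number of cytosolic synthetases detected and the number of genes detected had a Pearson r of 0.91 and a Spearman rho of 0.87. That correlation is a description over cells of 2 samples, and both measures would move with the capture depth of a cell, which is unknown.

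**Figure D3:**
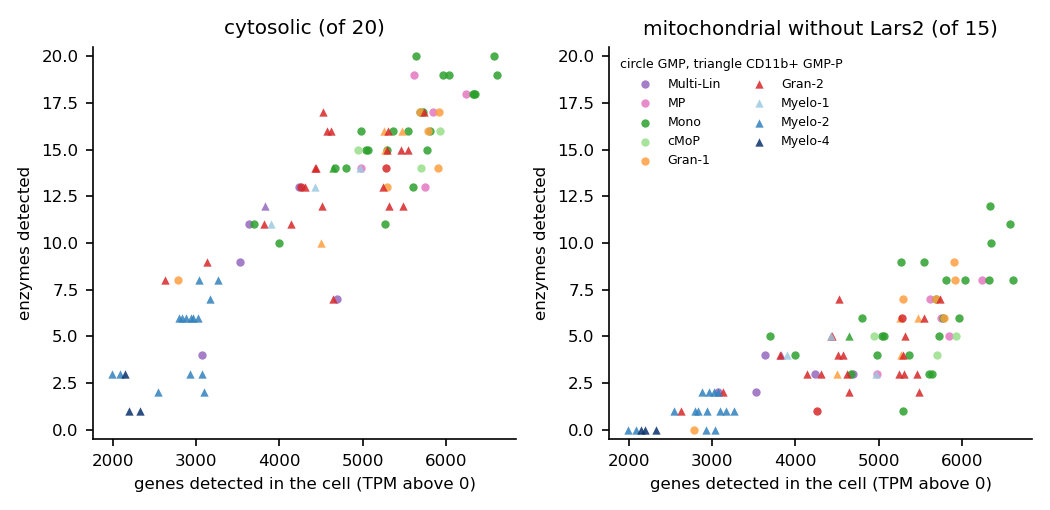
Synthetases detected in each cell (vertical axis) against all genes detected in that cell (horizontal axis), with circles for GMP and triangles for CD11b+ GMP-P cells, coloured by state. Lars2, detected in every cell, is left out of the right panel, which shows the mitochondrial enzymes. The Myelo-2 and Myelo-4 cells lie at the low left of both panels, and in the left panel the cytosolic count runs from 1 to 20 along with the genes detected.

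Most factors that work beside the synthetases in the cytosol were lower in CD11b+ GMP-P as well, to be read against the 39% of all genes. All 3 scaffold genes of the multisynthetase complex were lower, Eef1e1 by -2.77, Aimp1 by -2.53 and Aimp2 by -1.38. The 5 cytosolic elongation factors, which bring charged transfer RNA to the ribosome or move it along, were all lower, with Eef1g at -4.28, Eef1d at -3.80 and Eef1b2 at -3.63. All 4 genes for transfer RNA editing and export were lower, among them Dtd1, a D-aminoacyl-tRNA deacylase (-3.52), and Xpot, the transfer RNA exporter (-1.23). Of 6 mitochondrial translation factors compared, 5 were lower, with Tufm, the mitochondrial elongation factor, at -2.29. Of the 3 mitochondrial charging partners compared 1 was lower, a share below that of all genes: Trnt1 (-1.77), which adds the CCA end to transfer RNAs.

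The ATF4 pathway did not move as 1 block. Of 13 of its amino acid response genes compared, 8 were lower in CD11b+ GMP-P, with a median of -1.55. The largest were the serine synthesis genes Phgdh (-4.39) and Psat1 (-2.98), the mitochondrial serine hydroxymethyltransferase Shmt2 (-3.20), and Atf4 itself (-2.66). Asns, asparagine synthetase, was the 1 gene higher, by 1.27, and is named here after its value was seen. The 12 synthetases listed as ATF4-induced had a median of -1.21 with 9 lower, close to the -1.43 of all cytosolic enzymes. Of the 5 genes compared from the kinase list of the pathway 2 were lower, a share near the 39% of all genes. They were Ppp1r15a (-3.75), a phosphatase subunit, and Eif2s1 (-2.13), the substrate of the kinases.

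The second question was how the Multi-Lin cells compare with the other 40 cells of the GMP gate. Among cytosolic synthetases 16 of 20 were lower in Multi-Lin by at least 2-fold and 0 were higher, with a median difference of -2.02. Of all 8218 genes compared, 42.9% were lower and 9.33% higher, with a median of -0.78. Genes at the same mean level over all 92 cells as the middle of the cytosolic enzymes had a median of -1.46. The 10 enzymes in that range had a median of -2.26. Multi-Lin cells also had fewer genes detected (3634 against 5660, medians). In 3 pairs of cells matched on that number (medians 4239 and 4254) 8 of 20 were lower, and 3 were higher, Farsa (6.36), Aars (2.29) and Tars (1.502), with a median of -0.69. In those pairs 30.1% of all genes were lower and 29.5% higher. With equal medians of widely detected genes 13 were lower and 2, Aars and Mars, were higher, where 32.3% of all genes were lower and 21.5% higher.

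Kars stood out within the module. Its level in the 5 Multi-Lin cells was 0, 0, 0.37, 2.87 and 4.55, while in the other 40 cells it ran from 0 through a median of 9.48 to 10.65. Of those 40, 38 were above all 5 Multi-Lin cells, and the remaining 2, both Mono, were listed at 0. The difference was -7.34, the second lowest of the 8218 genes compared. It stayed between -6.95 and -8.09 when each Multi-Lin cell was left out in turn, and was -5.52 in 3 matched pairs of cells. The single Multi-Lin cell of the CD11b+ GMP-P gate, which did not enter this comparison, had Kars at 0.48, where its Gran-1 cells averaged 6.88 and its Gran-2 cells 7.06. Kars made at most 2.89% of the summed cytosolic synthetase TPM in the 5 Multi-Lin cells, against a median of 27.7% in the other 40.

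Dars, the aspartate enzyme of the same complex, showed a like pattern. It was listed at 0 in 4 Multi-Lin cells and stood at 3.89 in the fifth, while the other 40 cells had a median of 6.73 and 33 of them were above 3.89. The difference was -4.97. Iars was listed at 0 in all 5 Multi-Lin cells, for which the exact Clopper-Pearson 95% upper limit is 52.2%, and was detected in 31 of the other 40 at a median over the 40 of 4.2, a difference of -3.74. The CD11b+ GMP-P Multi-Lin cell differed here, with Iars at 5.35, while Dars was listed at 0. Sars (-3.32), Lars (-3.03) and Tars (-2.72) were also lower. Cars was listed at 0 in all 5 cells, but also in 20 of the other 40.

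Other cytosolic enzymes were not lower by 2-fold in Multi-Lin. Farsa was at 0, 5.25, 5.66, 10.30 and 11.28 in the 5 cells, and its 2 highest values lie above every other GMP-gate cell (highest 9.78), so its mean differed by -0.09, by 0.84 with equal medians, and by 6.36 in the 3 matched pairs. Aars (0.61), Mars (0.49) and Hars (-0.89) were also within 2-fold. With equal medians Aars (1.09) and Mars (1.09) were higher by 2-fold and Hars was at 0.19, and in the matched pairs Aars was at 2.29, Mars at -0.08 and Hars at -0.46. Eprs (-1.10) and Nars (-1.34) were lower in the mean but rested on single cells: without cell 23 Eprs was at 0.17, and without cell 26 Nars was at 0.20. The 5 cells therefore did not share a single profile. Their summed cytosolic TPM was 218, 261, 2270, 3041 and 3732, and in the 261 TPM cell 98.9% of it was Nars.

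**Figure D4:**
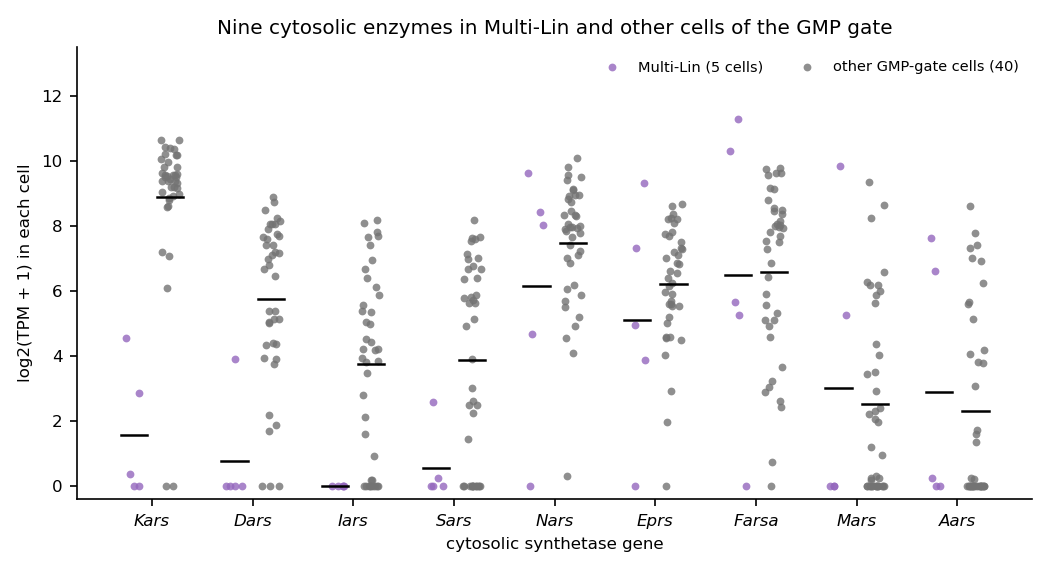
Level of 9 cytosolic enzymes in each of the 5 Multi-Lin cells (purple) and the other 40 GMP-gate cells (grey), as log2(TPM + 1); bars are means. For Kars 38 of the 40 grey points lie above all purple points, whereas for Farsa, Mars and Aars the purple points span the grey range.

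Taken state by state, the gap was widest against MP. Against MP, 17 of 19 cytosolic enzymes compared were lower in Multi-Lin and 1, Aars (1.87), was higher, with a median of -2.62, where 50.6% of all genes were lower and 10.9% higher. Against Mono, 15 of 20 were lower and 0 higher (median -2.04), where 44.1% of all genes were lower and 9.38% higher. Against Gran-1, 14 were lower and 2, Aars (1.98) and Mars (1.45), were higher (median -1.88), where 41.6% of all genes were lower and 13.6% higher. Kars differed by -8.17, -7.05 and -7.43 in the 3 comparisons, which share the Multi-Lin cells. The MP cells carried the highest cytosolic levels of the states with at least 3 cells, with a median over enzymes of 5.24 and a median summed level of 3311 TPM. In the 5 MP cells Kars was at 9.31, 9.39, 9.45, 9.82 and 10.64.

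Mitochondrial enzymes differed less in Multi-Lin. Of 12 compared, 5 were lower (Tars2, Fars2, Hars2, Yars2 and Sars2, from -1.67 to -1.20) and 0 higher, near the 42.9% of all genes, and the median was -0.79 against -0.78 for all genes. Lars2 was detected in all 5 cells at 4.30, 6.25, 6.34, 6.44 and 6.49, above its mean in the other cells by 0.56, by 1.98 with equal medians and by 1.27 in the matched pairs. With equal medians Wars2 (1.58) was higher by 2-fold as well, so that 5 were lower and 2 higher. There 32.3% of all genes were lower and 21.5% higher. In the matched pairs 2 of 10 were lower and 4 higher, where 30.1% of all genes were lower and 29.5% higher. With most cytosolic levels low, the cytosolic enzyme was the higher in 10 of 16 pairs in Multi-Lin, against 15 of 16 in the other cells, and the median pair difference was 1.16 against 2.48. Against the 3 comparison states the mitochondrial counts were 4 lower and 1 higher of 10 (MP), 6 and 0 of 13 (Mono), and 6 and 1 of 12 (Gran-1). The shares of all genes lower and higher were 50.6% and 10.9% (MP), 44.1% and 9.38% (Mono), and 41.6% and 13.6% (Gran-1).

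The complex enzymes and their partners were uneven in Multi-Lin, to be read against the 42.9% of all genes lower and 9.33% higher. Of the 8 enzymes of the multisynthetase complex 7 were lower (median -2.71), Mars being the exception, and of the 12 free cytosolic enzymes 9 were lower (median -1.85). Of the scaffold genes, Aimp2 (-4.24) and Eef1e1 (-2.11) were lower, and Aimp1 was at 0.76. The 5 cytosolic elongation factors were all within 2-fold, from -0.65 to 0.36. Of 7 mitochondrial translation factors compared 6 were lower, led by Tsfm (-4.39) and Gfm1 (-3.12). Of 12 ATF4 response genes compared 6 were lower, a share near that of all genes, led by Phgdh (-3.65) and Shmt2 (-3.07). The 4 that were higher were Aldh18a1 (1.97), Slc3a2 (1.92), Mthfd2 (1.23) and Slc38a2 (1.16), the last 3 named after their values were seen.

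Within the CD11b+ GMP-P gate, Myelo-2 had lower cytosolic synthetases than Gran-2. Of 20 enzymes 16 were lower by at least 2-fold and 0 higher, with a median of -2.57, where 51.2% of all 7334 genes compared were lower, 2.62% were higher and the median was -1.04. After scaling cells to equal medians 14 were lower and 1, Sars, was higher, where 30.5% of all genes were lower and 20.9% higher. All 8 complex enzymes were lower (median -3.34), as were 8 of the 12 free ones (median -1.63). Farsa ran from 0 through 6.35 to 8.88 in the 20 Gran-2 cells, 15 of which were above the highest Myelo-2 cell (0.36), a difference of -4.86. Dars and Nars differed by -4.11 each and Kars by -4.05, but the highest Myelo-2 cell of each was at 8.01, 9.01 and 10.38. Kars was high in several Myelo-2 cells and listed at 0 in others. It made 76.9%, 93.8%, 93.9% and 52.6% of a cytosolic sum of 1283, 1421, 1216 and 1176 TPM in cells 63, 64, 67 and 77. Its median share over the 15 Myelo-2 cells was 0. Nars made 50.3% and 39.3% of the cytosolic sum in cells 52 and 77. Sars (-0.28, or 1.74 with equal medians), Vars (-0.30, or 0.36), Cars (-0.57, or 0.035) and Aars (-0.87) stayed within 2-fold. In Sars, 9 of 15 Myelo-2 cells and 14 of 20 Gran-2 cells had a value above 0.

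**Figure D5:**
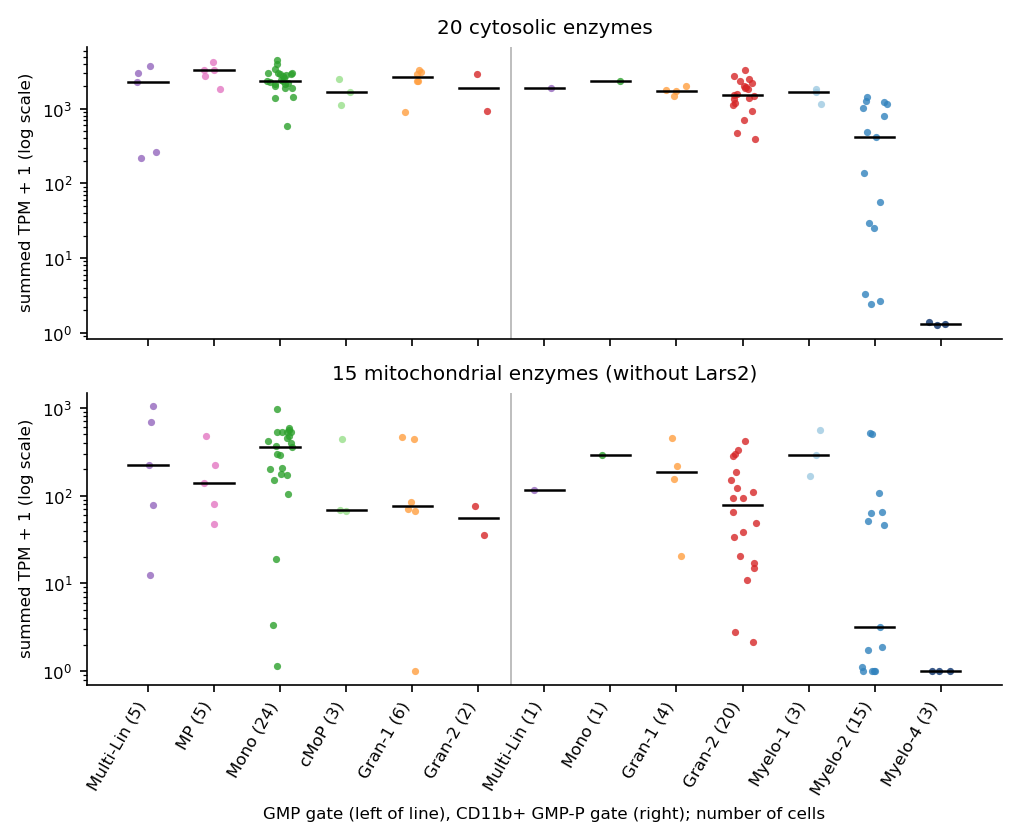
Summed TPM + 1 (log axis) of the 20 cytosolic enzymes (top) and of 15 mitochondrial enzymes without Lars2 (bottom) in each cell, by state; bars are medians. The cytosolic sum has a median of 1537 TPM in Gran-2 and 420 in Myelo-2, where single cells spread from 1.42 to 1421, and lies below 1 TPM in all 3 Myelo-4 cells.

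In Myelo-2 the cells spread over 3 orders of magnitude in their summed cytosolic level, 1.42 TPM in the lowest, 420 at the median and 1421 in the highest, against 397, 1537 and 3285 in Gran-2. The 5 elongation factors were all lower in Myelo-2, with Eef1g at -5.91 and Eef1b2 at -5.82. Of 8 mitochondrial enzymes compared, 2 were lower, Sars2 (-1.45) and Yars2 (-1.14), a share below that of all genes, and the median was -0.57. Of all genes compared between these states, 51.2% were lower, with a median of -1.04. Fewer genes were detected in Myelo-2 than in Gran-2 (medians 2936 and 4595), and too few cells overlapped in that number for a matched comparison. The 3 Myelo-1 cells, in contrast, held 1161, 1694 and 1861 TPM of cytosolic enzymes, inside the Gran-2 range.

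Myelo-4 lay at the end of the range. In its 3 cells, summed cytosolic TPM was 0.25, 0.29 and 0.39, and 16 of 20 cytosolic genes were listed at 0 in all 3. The other 4, Hars, Rars, Sars and Vars, reached at most 0.37 on the log2 scale. Of the mitochondrial genes 15 of 16 were listed at 0 in all 3 cells, and Lars2 was at 2.99, 3.83 and 5.73. Actb, for cytoplasmic actin, was at 25135 to 54836 TPM in the same cells, and Gapdh, a glycolytic enzyme, at 831 to 1803. Of 6 genes listed as housekeeping, 5 were above 0 in some Myelo-4 cell, and Tbp was listed at 0 in all 3. Abundant genes such as Actb do not show how well genes at the level of the synthetases were sampled in these cells. For a gene listed at 0 in all 3 cells the exact Clopper-Pearson 95% upper limit of the detected share is 70.8%.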

How the data were processed

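The deposited expression table holds log2 values for 23956 genes in 92 cells. They are log2(TPM + 1), read from the values: without the Ly6g row, TPM summed to 1000000 or 1000001 in each cell. The submitters' processing notes name Bowtie2, RSEM and the mm9 build, without versions. States come from the authors' deposited groups file. Per the labels' protocols, cells were captured on Fluidigm C1 chips and amplified with SMARTer chemistry. TPM keeps no depth, so depth is unknown and genes detected stand in for it; doublets were not called.

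Mean log2(TPM + 1) was subtracted between groups for genes with a TPM above 0 in 25% or more of either group, with a pseudocount of 1, which understates changes of low genes. A difference of 1 (2-fold) was counted. No p-value was computed, since cells are not replicates. The arithmetic of the difference was checked with known shifts put into cells resampled from the data. That check says nothing on capture depth, genes missed in a cell or false calls. All 36 members were named, and up to 4 genes of each other list, those with the largest difference; others named outside that rule were chosen after their values were seen. Members and lists were chosen with earlier results of these data known. Alternatives changed the pseudocount, averaging, filter, scaling and cells. Python 3.11.15, numpy 2.4.6, pandas 2.3.3 and scipy 1.17.1 were used. Promoter windows are from RefSeq, not from the mm9 build of the files. Some marker genes and 1 promoter stretch are not reported here.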

Additional observations from a re-analysis of the deposited data

Results flagged for a closer look

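Among 36 groups of values from 4 to 10 cells, 4 held a cell far from the others of its state. The cutoff is set to give about 1 in 20 by chance for independent, normally distributed values. The values here share cells and include zeros and small counts, so that rate does not apply to them. In the Gran-1 state of CD11b+ GMP-P, 1 cell had 10 cytosolic synthetases detected, against 15 to 16 in the other 3. It also had the fewest genes detected of its state, 4499 against 5255 to 5477. In the Gran-1 state of GMP, 1 of 6 cells had 1 mitochondrial synthetase detected, against 7 to 10 in the others. The same cell had Nars at 0.32 on the log2(TPM + 1) scale, against 8 to 10.10. It had the fewest genes detected of the GMP gate, 2775, against 5296 to 5923 in the other Gran-1 cells. The part of genes detected in these flags was not tested. In the Multi-Lin state of GMP, 1 of 5 cells had Lars2 at 4.30, against 6.25 to 6.49 in the others.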

How the results depend on the processing

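Of the summary values recomputed under the alternatives, 195 were sorted as little changed, 40 as moved and 1 as reversed. Of the values of single genes, 1167 were sorted as little changed, 31 as moved and 26 as reversed. Little changed means a shift smaller than the SD of cells, which is wide, or for counts a small ratio. A change of sign was sorted as reversed only where the main difference was at least 2-fold. Smaller differences could therefore change sign and still be sorted as little changed. Causes were not tested, except that fewer cells or genes enter some alternatives by construction. For the gates, the count of lower cytosolic enzymes (17) was 7 with a pseudocount of 10, 11 with equal medians of widely detected genes, 2 in matched cells, 7 without the Myelo states, 5 among Gran-1 and Gran-2 cells and 6 at 4-fold. The count of lower mitochondrial enzymes (4) was 1 with a pseudocount of 10, 8 with the log2 of mean TPM, 1 in matched cells, 2 without the Myelo states and 1 at 4-fold. The mitochondrial median was -1.34 with detection in 50% of cells, and relative to all genes -0.67 with the log2 of mean TPM. Of the genes lower by 2-fold in all cells, in matched cells Hars (0.33), Lars (1.33), Qars (1.38), Wars (0.27) and Yars (0.68) were higher in CD11b+ GMP-P. So was Dars (0.31) without the Myelo states, and among Gran-1 and Gran-2 cells Aars (0.94), Dars (0.19), Iars (0.29), Lars (0.66), Qars (0.70) and Rars2 (0.57). Other enzymes were higher too, in matched cells Iars2 (1.45), Tars (0.88) and Mars (0.41), and among Gran-1 and Gran-2 cells Mars (1.40), Tars (1.23) and Cars2 (1.06). For Multi-Lin, the cytosolic median was -3.17 with a pseudocount of 0.1, -3.45 with the log2 of mean TPM (-2.57 relative to all genes) and -0.69 in 3 matched pairs. The cytosolic count (16) was 10 with a pseudocount of 10, 8 in matched cells and 10 at 4-fold. The mitochondrial count (5) was 0 with a pseudocount of 10, 3 with detection in 50% of cells, 2 in matched cells and 0 at 4-fold. The mitochondrial median was 0.18 with the log2 of mean TPM (1.06 relative to all genes) and 0.47 in matched cells. With the log2 of mean TPM, Eprs (0.42), Rars (0.42), Fars2 (0.27) and Tars2 (0.088) reversed. In matched cells Eprs (0.42), Gars (0.29), Tars (1.502), Vars (0.73) and Yars (0.040) reversed. Leaving out 1 Multi-Lin cell in turn gave Eprs from -2.16 (without cell 26) to 0.17 (without cell 23) and Nars from -2.21 (without cell 14) to 0.20 (without cell 26). Leaving out cells 14, 17 and 23, chosen after seeing the data, reversed Eprs (2.13), Gars (0.22) and Rars (1.55). For Myelo-2, the cytosolic median was -4.003 with a pseudocount of 0.1 and -1.23 with a pseudocount of 10 (-0.79 relative to all genes), and -2.57 relative to all genes with no filter. The mitochondrial median was -1.16 with a pseudocount of 0.1, and relative to all genes -0.48 with no filter and 1.14 with detection in 50% of cells. The mitochondrial count (2) was 6 with a pseudocount of 0.1, 0 with a pseudocount of 10, 4 with the log2 of mean TPM and 0 with detection in 50% of cells. A matched comparison was not run, since 2 pairs remained. The cytosolic minus mitochondrial median in GMP was 3.17 with a pseudocount of 0.1 and 0.44 with detection in 50% of cells, and in CD11b+ GMP-P -1.61 with that filter, where Lars2 alone remained of the mitochondrial genes. No paired analysis was possible because each gate is 1 sample and the gates share no cell numbers.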
